A study of Drosophila melanogaster with 5 samples.

Results

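RNA-binding proteins that steer splicing and translation in neurons were examined in single cells of the *Drosophila* pars intercerebralis (PI), a neurosecretory center of the dorsal brain that relays circadian time to rest:activity behavior. The list held 10 genes, chosen by name: the ELAV family genes *elav*, *fne* and *Rbp9*, the TRIM-NHL genes *mei-P26* and *brat*, the Pumilio gene *pum*, the fragile X gene *Fmr1*, the developmental timing genes *Syp* and *Imp*, and the Ataxin-2 gene *Atx2*. Of these, 9 were matched by symbol to the 17453 gene identifiers of the count tables. *Imp* was not matched and was not analysed here.

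The ELAV (Hu) proteins bind AU- and U-rich RNA and, in fly neurons, regulate alternative splicing, the choice of 3' ends and mRNA stability, and ELAV itself is the standard marker of neurons. Pumilio, Brat and Mei-P26 bind 3' UTRs and repress translation or promote mRNA decay. FMRP, the product of *Fmr1*, represses the translation of synaptic and cytoskeletal mRNAs. In neural stem cells of the fly, Syncrip (*Syp*) and the IMP protein form opposing temporal gradients that set neuronal fate, and in clock neurons Ataxin-2 acts with the TYF protein to promote the translation of *per* mRNA.

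RNA was sequenced in 5 libraries of 1 GFP-labeled cell each, with 1 condition and no comparison group. The study kept 4 of them, called cells 1 to 4 here. It excluded the remaining library, labelled D and called cell D or the excluded cell, and gave indiscriminate mapping of reads as the reason. Of the trimmed reads, 60.4% to 85.5% mapped uniquely in the kept cells and 92.6% in cell D. What the study measured for this reason is not given in the sources used here. GFP was driven either as mCD8::GFP by kurs58-GAL4 or as nlsGFP by C767-GAL4, and the sources used here do not say which driver labeled which cell. Both drivers also label cells outside the PI, so cells were picked next to neurons marked by Dilp2mCherry, a construct that all of the flies carried. Animal identifiers in the labels differ for every cell, but the series record names 4 animals for the 5 cells, and the age of the flies is not given in the sources used here.

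Reads assigned to genes numbered 3451331 to 4441952 per kept cell and 4913151 for the excluded cell, so that 3 reads, the limit that a count of 0 allows, were 0.675 to 0.869 RPM in the kept cells and 0.611 RPM in the excluded cell. RPM is the reads of a gene per 1000000 reads assigned to genes, and expression is given as log2(RPM + 1). Intervals in brackets are exact Poisson 95% intervals. They cover counting error only, because amplified reads are not independent molecules. With 1 cell per library and no second condition, no test between cells or conditions was run. A value is said to differ between cells where these intervals do not overlap.

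The libraries were checked against cell type markers. Of 11 neuronal markers, 9, 11, 9 and 11 were at or above 1 RPM in cells 1 to 4 and 11 in cell D, with a summed level of 1306, 2356, 6430 and 4227 RPM in cells 1 to 4 and 16919 RPM in cell D. The active zone gene *brp* had 0 reads and the synaptotagmin gene *Syt1* had 3 reads in cell 1, and the syntaxin gene *Syx1A* and its partner *Rop* had 0 reads in cell 3, so some defining markers were not detected in these libraries. The neuropeptide gene *Dh44*, a marker of PI output cells, took 13.2% of the assigned reads in cell 3 and at most 0.0171% in the other kept cells. Of 5 PI peptide genes, 2, 3, 5 and 2 passed 1 RPM in cells 1 to 4 and 5 in cell D. The other output peptide gene, *SIFa*, had 0, 0, 80 and 0 reads in cells 1 to 4 and 489 in cell D. Genes of the insulin-like peptides, which mark the DILP cells that the picking was meant to avoid, were also high in cell 3. *Ilp2* had 4, 46, 8179 and 1 reads in cells 1 to 4 and 768 in cell D, *Ilp3* had 2, 2, 254 and 5 reads in cells 1 to 4 and 55 in cell D, and *Ilp5* had 0, 10, 143 and 0 reads in cells 1 to 4 and 112 in cell D. Of 7 fat body markers, 6, 6, 4 and 6 were at or above 1 RPM in cells 1 to 4 and 5 in cell D. They summed to 9870 to 45336 RPM in the kept cells and 1009 RPM in the excluded cell, with *Fbp1* at 0 reads in every cell. Of 12 photoreceptor markers, 12, 11, 9 and 12 passed in cells 1 to 4 and 11 in cell D. They summed to 1968 to 48205 RPM in the kept cells and 1349 RPM in the excluded cell. Of 9 glial markers, 6, 8, 4 and 7 passed in cells 1 to 4 and 9 in cell D, with a summed level of 755 to 5068 RPM in the kept cells and 1977 RPM in the excluded cell. The glial transcription factor gene *repo* had 1, 0, 0 and 300 reads in cells 1 to 4 and 37 in cell D. Of 7 hemocyte (blood cell) and muscle markers, 5, 5, 4 and 5 passed in cells 1 to 4 and 4 in cell D. They summed to 238 to 942 RPM in the kept cells and 25.6 RPM in the excluded cell. The hemocyte gene *Hml* had 754, 76, 122 and 123 reads in cells 1 to 4 and 23 in cell D. *NimC1* had 795, 6, 14 and 1 reads in cells 1 to 4 and 1 in cell D, and *He* had at most 5 reads in any cell. The part of RNA from other cell types in the levels below was not tested.

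Most of the RNA regulators were detected in every cell. At or above 1 RPM were 7 of the 9 in cell 1, against 23.7% of all genes, and 9 of 9 in cells 2, 3 and 4, against 34.5%, 17.7% and 35.1% of all genes. The excluded cell also had 9 of 9, against 40.7%. In all 4 kept cells together, 7 of 9 reached 1 RPM, against 11.3% of all genes, and the members that did not were *elav* and *Fmr1*, each with 1 read in cell 1. At 10 RPM, 6 of 9 passed in all kept cells, against 6.89% of all genes, since *brat* dropped out. The counts per cell were 6, 9, 8 and 9 in cells 1 to 4 and 9 in cell D, against 17.6%, 24.9%, 13.4% and 25.7% of genes in cells 1 to 4 and 28.2% in cell D. At 100 RPM, *Rbp9*, *mei-P26*, *pum*, *Syp* and *Atx2* still passed in each kept cell, which is 5 of 9, against 2.42% of all genes. By cell, 5, 9, 6 and 7 members reached 100 RPM in cells 1 to 4 and 9 in cell D, against 7.99%, 7.44%, 6.54% and 7.7% of genes in cells 1 to 4 and 9.5% in cell D. Taking in the excluded cell as well left the counts of 7, 6 and 5 as they were, against 11%, 6.16% and 2.02% of all genes. The median over the 9 genes of the mean expression in the kept cells was 7.95. Over the 7734 genes at or above 1 RPM in at least 1 kept cell, which are 44.3% of all genes and include all 9 members, it was 2.68, and over the 1972 genes that passed in all kept cells it was 6.24. These levels are RPM without division by transcript length. The members were chosen with earlier results of these data known, so the shares over all genes are a background and not a test. At or above 1 RPM in all kept cells were 77.8% of the members and 33.3% to 100% of the genes of the 6 lists described below.

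**Figure D1:**
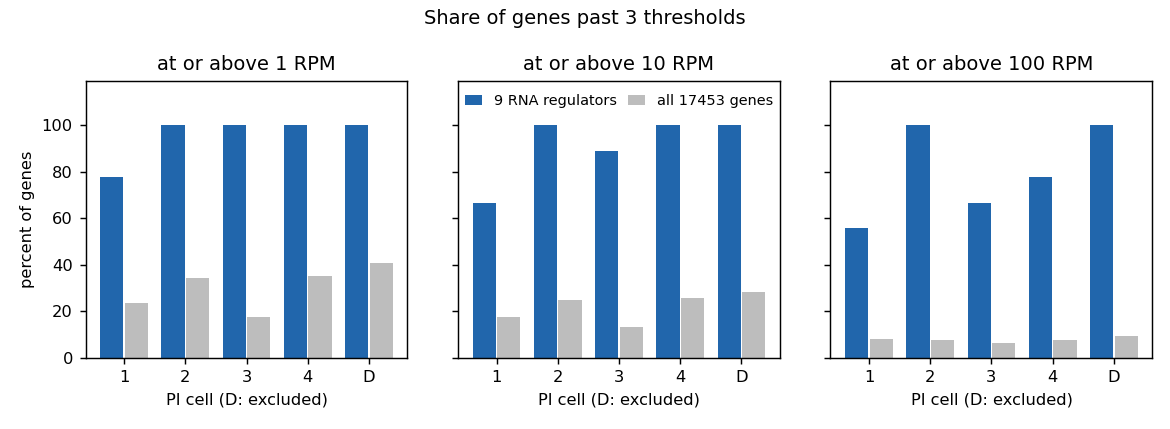
Percent of genes at or above 1, 10 and 100 RPM (panels, left to right) in each PI cell, for the 9 RNA regulators (blue) and all 17453 genes of the count tables (gray). The blue bar stood above the gray bar in every cell and panel, and at 100 RPM it ranged from 55.6% in cell 1 to 100% in cell 2 and the excluded cell.

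The range of expression differed among the 9 genes, and for *elav* and *Fmr1* it rests on 1 read each in cell 1. In cells 2 to 4, *elav* lay between 4.50 and 6.95 and *Fmr1* between 5.37 and 7.02. Across the kept cells the range of expression was 1.26 for *Atx2*, 1.36 for *pum*, 1.53 for *Syp*, 1.83 for *Rbp9* and 2.22 for *mei-P26*, but 4.62 for *fne*, 5.87 for *brat*, 6.62 for *elav* and 6.69 for *Fmr1*. A range of over 4 was thus seen in 4 of 9, against 57.1% of the 7734 genes. The median range was 2.22 over the members and 4.39 over those genes. Because genes with few reads in any cell are part of that background, the comparison was repeated on genes at or above 1 RPM in all kept cells, where 2 of the 7 members that passed (*fne* and *brat*) had a range of over 4, against 33.6% of 1972 genes.

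**Figure D2:**
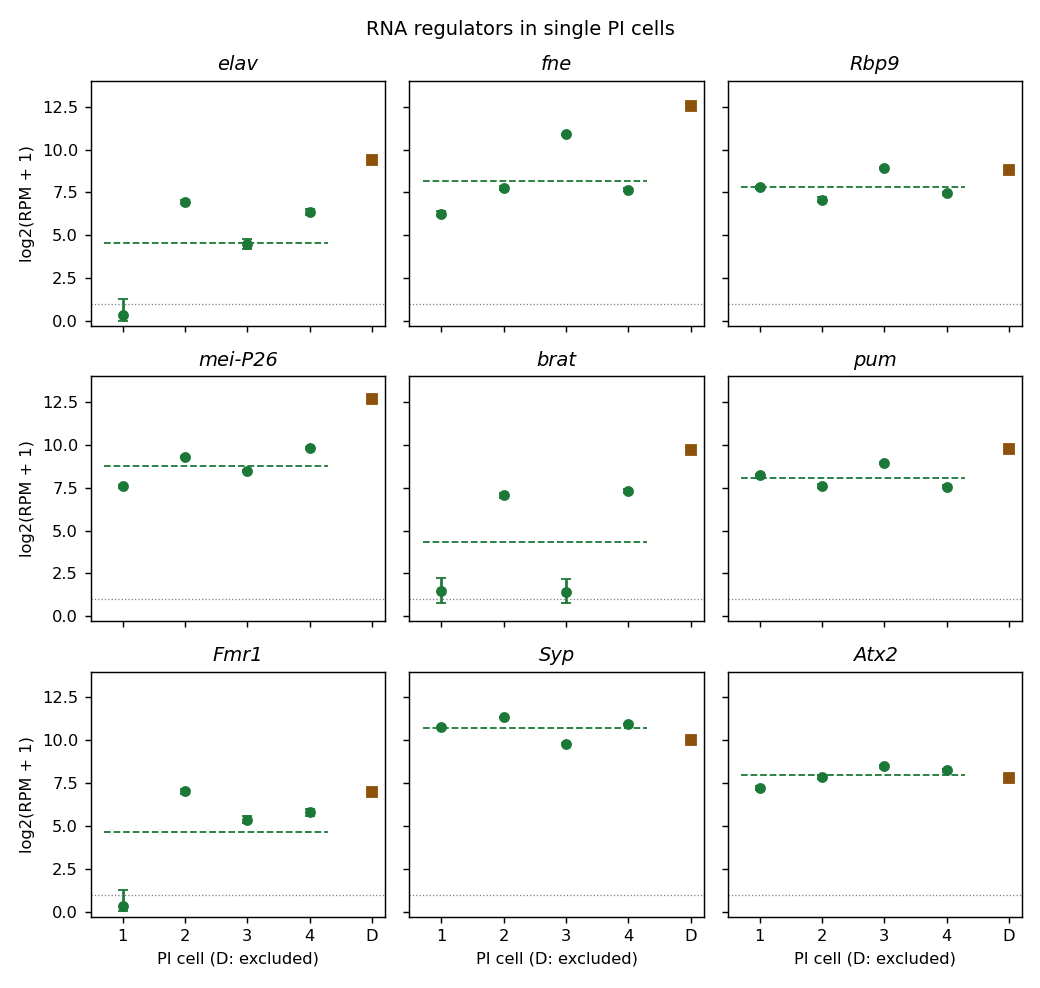
Expression of the 9 RNA regulators, log2(RPM + 1), in PI cells 1 to 4 (green circles) and in the excluded cell D (brown squares). Bars are exact Poisson 95% intervals, dashed lines are means over the kept cells and dotted lines mark 1 RPM; *Syp* and *Atx2* stayed within 1.53 and 1.26 across the kept cells, whereas *elav*, *brat* and *Fmr1* dropped to 7 reads or fewer in cell 1.

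*elav*, the founding member of its family (FBgn0260400, chromosome X, 509235 to 523226, minus strand), did not reach 1 RPM in all kept cells. It had 1, 423, 88 and 361 reads in cells 1 to 4 and 3316 in cell D. Expression was 0.33 (0.0093 to 1.28), 6.95 (6.81 to 7.09), 4.50 (4.19 to 4.79) and 6.36 (6.21 to 6.51) in cells 1 to 4 and 9.40 (9.35 to 9.45) in cell D. No intervals overlapped, so every cell differed from every other beyond counting error, with cell 1 lowest and the excluded cell highest. The interval of cell 1 includes 1 RPM. The mean over the kept cells was 4.53 ± 2.99 (SD, n = 4). Cell 2 had 479.9 times the RPM of cell 1, a ratio that rests on a single read and has a counting interval of 85.7 to 18999.8.

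*fne* (found in neurons, FBgn0086675, chromosome X, 12917477 to 12950417, plus strand), a paralog that can take over ELAV's role in splicing when ELAV is lost, was detected in every cell. Its reads numbered 298, 752, 7744 and 891 in cells 1 to 4 and 29819 in cell D. Expression was 6.27 (6.10 to 6.43), 7.77 (7.67 to 7.88), 10.89 (10.86 to 10.92) and 7.66 (7.56 to 7.75) in cells 1 to 4 and 12.57 (12.55 to 12.58) in cell D. Cells 2 and 4 overlapped. Cell 1 lay below them and cell 3 above them, at 25.0 times the RPM of cell 1 (22.2 to 28.1). The mean over the kept cells was 8.15 ± 1.95 (SD, n = 4).

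*Rbp9* (FBgn0010263, chromosome 2L, 2954762 to 2968434, plus strand), the family member that also acts in the female germline, varied less. It had 862, 464, 1957 and 773 reads in cells 1 to 4 and 2170 in cell D. Expression was 7.79 (7.69 to 7.88), 7.08 (6.95 to 7.21), 8.91 (8.85 to 8.97) and 7.45 (7.35 to 7.55) in cells 1 to 4 and 8.79 (8.73 to 8.85) in cell D. Cell 3 was highest and cell 2 lowest, 3.57 times apart in RPM (3.23 to 3.96), and no kept cells overlapped, although cells 2 and 4 did with the sum of STAR's strands. The mean was 7.81 ± 0.79 (SD, n = 4). The germline markers *nos*, *bam*, *osk*, *piwi* and *aub* had 0 reads in each of the kept cells, and in cell D *piwi* had 13 reads and *aub* 23, with 0 for the other 3 genes.

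The make-up of the family differed from cell to cell. Shares of the summed reads of *elav*, *fne* and *Rbp9* are not corrected for transcript length, so only their change between cells is described, with Wilson 95% intervals. *Rbp9* held 74.2% (71.7 to 76.7), 28.3% (26.2 to 30.5), 19.99% (19.21 to 20.80) and 38.2% (36.1 to 40.3) of 1161, 1639, 9789 and 2025 family reads in cells 1 to 4, and 6.15% (5.90 to 6.40) of 35305 in cell D. The share in cell D leaves out reads that *Rbp9* shares with a neighbor and was 10.9% with the sum of STAR's strands, 8.08% by MMQuant for the gene alone and 10.6% with the shared reads added, which left *fne* there at 79.6%, 82.4% and 80.04%. Among the kept cells the share of *Rbp9* moved most in cell 2, where it was 28.3% to 31.4% over the same 4 counts. *fne* held 25.7%, 45.9%, 79.1% and 44.0% in cells 1 to 4 and 84.5% in cell D. *elav* held 0.0861%, 25.8%, 0.899% and 17.8% in cells 1 to 4 and 9.39% in cell D. Cells 2 and 4 thus had all 3 genes at 17.8% or more. Among the kept cells, the share of *Rbp9* was highest in cell 1 and that of *fne* in cell 3. Both of these cells had under 1% *elav*, which in cell 1 rests on 1 read. The ratio of *fne* to *elav* reads was 1.78 (1.58 to 2.01) in cell 2 and 2.47 (2.18 to 2.80) in cell 4, but 88.0 (71.3 to 109.9) in cell 3. The excluded cell had a ratio of 8.99 (8.68 to 9.32).

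**Figure D3:**
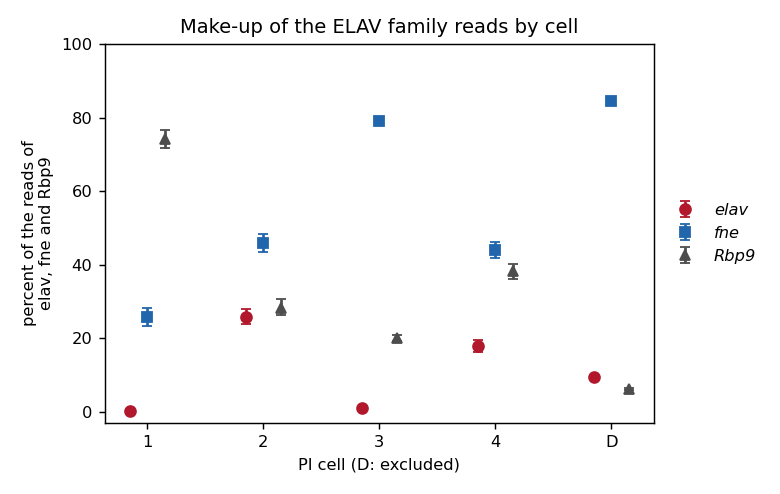
Percent of the summed reads of *elav* (red circles), *fne* (blue squares) and *Rbp9* (gray triangles) that each gene held in PI cells 1 to 4 and in the excluded cell D, with Wilson 95% intervals. *Rbp9* ranged from 74.2% in cell 1 to 19.99% in cell 3 among the kept cells, and *elav* was under 1% in cells 1 and 3.

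Overlapping genes bear on *Rbp9* and *elav*, because the libraries kept no strand and reads pile up at 3' ends. Exons of *Rbp9* share 142 bases with those of *Ts*, the thymidylate synthase gene on the opposite strand. STAR without strand gives a read in such a stretch to neither gene, whereas MMQuant can give it to the pair. For *Rbp9* alone, MMQuant counted 2953 reads in cell D, against 2170 by STAR without strand. MMQuant put 0, 41, 42 and 0 reads on the *Rbp9* and *Ts* pair in cells 1 to 4 but 1031 in the excluded cell, which is 25.9% of all reads it gave to *Rbp9* alone or shared there. The expression of *Rbp9* in the excluded cell was 8.79 by STAR without strand, 9.55 by the sum of STAR's strands, 9.15 by MMQuant for the gene alone and 9.58 with the shared reads added. In cell 3 the same 4 counts gave 8.91, 8.83, 8.78 and 8.81. The intervals of the excluded cell and cell 3 thus overlapped by the first count. By the other 3, the excluded cell lay above cell 3 with intervals apart. Whether the reads that these 3 counts add in cell D came from *Rbp9* or from *Ts* was not tested. Exons of *elav* share 673 bases with *arg*, the arginase gene, on the opposite strand, and 2994 bases with the noncoding gene *lncRNA:enrr* on its own strand. The *elav* and *arg* pair had 72 reads in the excluded cell, 2.04% of the *elav* reads, and 0 in the kept cells. Every other group with a member of the list held at most 4 reads in any cell.

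**Figure D4:**
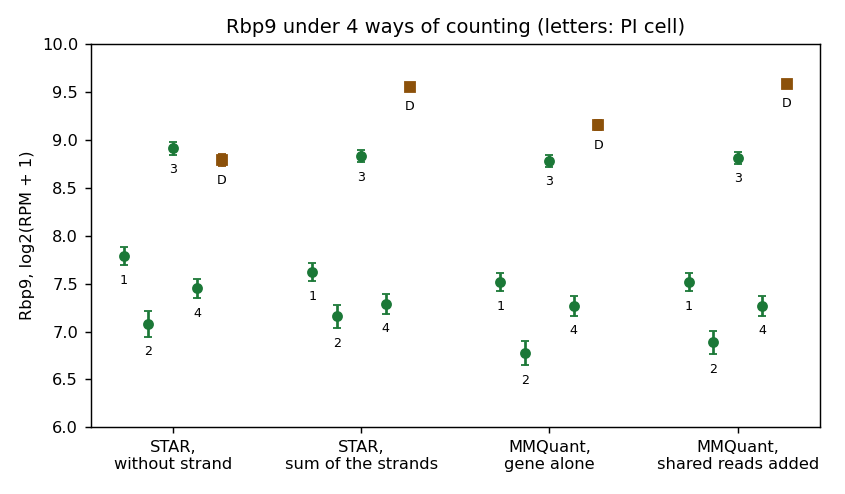
Expression of *Rbp9*, log2(RPM + 1), under 4 ways of counting reads in PI cells 1 to 4 (green circles) and in the excluded cell D (brown squares), with exact Poisson 95% intervals; each count has its own total as the denominator. Cell 3 stayed between 8.78 and 8.91, and the excluded cell moved between 8.79 and 9.58.

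*mei-P26* (FBgn0026206, chromosome X, 9163255 to 9189309, plus strand), a TRIM-NHL translational repressor best known from the differentiation of germline and neural stem cells, was expressed in every cell. It had 748, 2139, 1446 and 3983 reads in cells 1 to 4 and 32172 in cell D. Expression was 7.59 (7.48 to 7.69), 9.28 (9.22 to 9.34), 8.47 (8.40 to 8.55) and 9.81 (9.76 to 9.85) in cells 1 to 4 and 12.68 (12.66 to 12.69) in cell D. No intervals overlapped, and cell 4 had 4.69 times the RPM of cell 1 (4.34 to 5.08). The mean was 8.79 ± 0.97 (SD, n = 4). The germline genes *nos*, *bam* and *bgcn*, listed jointly as partners of Pumilio, Brat and Mei-P26, had 0 reads in all 5 cells.

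*brat* (brain tumor, FBgn0010300, chromosome 2L, 19133816 to 19179758, plus strand), the other TRIM-NHL gene, which limits the growth of neural stem cell daughters, split the kept cells into pairs. Its reads numbered 7, 456, 7 and 702 in cells 1 to 4 and 4036 in cell D. Expression was 1.48 (0.78 to 2.23) in cell 1 and 1.44 (0.76 to 2.18) in cell 3, which overlap and include 1 RPM. It was 7.06 (6.92 to 7.19) in cell 2 and 7.31 (7.21 to 7.42) in cell 4, and 9.68 (9.64 to 9.73) in the excluded cell. Cells 2 and 4 differed beyond counting error here, but their intervals overlapped with the sum of STAR's strands and with uniquely mapped reads as the denominator. The mean of 4.32 ± 3.31 (SD, n = 4) lay where no cell did. The ratio of *mei-P26* to *brat* reads was 107 (51.6 to 267) in cell 1 and 207 (100.002 to 515) in cell 3, but 4.69 (4.24 to 5.20) in cell 2 and 5.67 (5.24 to 6.16) in cell 4. The excluded cell had a ratio of 7.97 (7.71 to 8.24).

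*pum* (FBgn0003165, chromosome 3R, 9066343 to 9237682, minus strand), the PUF-family repressor that dampens neuronal excitability through sodium channel mRNA, was among the steadiest. It had 1182, 660, 1980 and 838 reads in cells 1 to 4 and 4273 in cell D. Expression was 8.24 (8.16 to 8.32), 7.59 (7.48 to 7.70), 8.93 (8.86 to 8.99) and 7.57 (7.47 to 7.66) in cells 1 to 4 and 9.77 (9.72 to 9.81) in cell D. Cells 2 and 4 overlapped, cell 1 lay above them and cell 3 was highest, at 2.57 times the RPM of cell 4 (2.37 to 2.79). By MMQuant, cell 2 at 7.16 lay below cell 4 at 7.40 with intervals apart. The mean was 8.08 ± 0.65 (SD, n = 4).

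*Fmr1* (FBgn0028734, chromosome 3R, 10101420 to 10110121, minus strand), whose loss in flies disturbs rest:activity rhythms, followed the order of *elav* in the kept cells. It had 1, 444, 165 and 242 reads in cells 1 to 4 and 627 in cell D. Expression was 0.33 (0.0093 to 1.28), 7.02 (6.88 to 7.15), 5.37 (5.15 to 5.59) and 5.79 (5.61 to 5.97) in cells 1 to 4 and 7.01 (6.89 to 7.12) in cell D. Cell 1 was lowest and cell 2 highest among the kept cells, and the excluded cell overlapped cell 2. The mean was 4.63 ± 2.95 (SD, n = 4). By MMQuant the excluded cell, at 6.90, lay above cell 2, at 6.61, and their intervals did not overlap. MMQuant counted 444 reads in cell 2, as STAR did, and 617 in cell D. The shift in cell 2 thus came from the larger MMQuant total used as the denominator.

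*Syp* (FBgn0038826, chromosome 3R, 20756729 to 20810726, plus strand), the fly homolog of hnRNP Q, had 894 RPM or more in every cell. It had 6792, 8889, 3643 and 8687 reads in cells 1 to 4 and 5124 in cell D. Expression was 10.76 (10.73 to 10.80), 11.33 (11.30 to 11.36), 9.80 (9.76 to 9.85) and 10.93 (10.90 to 10.96) in cells 1 to 4 and 10.03 (9.99 to 10.07) in cell D. Cell 3 was the lowest and cell 2 the highest, 2.88 times apart (2.77 to 3.00), and the excluded cell lay between cells 3 and 1. *Syp* was the only member lowest in cell 3 beyond counting error, a position that 23.1% of the 7734 genes had. The mean was 10.71 ± 0.65 (SD, n = 4).

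*Atx2* (FBgn0041188, chromosome 3R, 15408423 to 15417277, plus strand), a regulator of translation in clock neurons, had the narrowest range of the 9 genes. It had 581, 793, 1454 and 1346 reads in cells 1 to 4 and 1109 in cell D. Expression was 7.22 (7.10 to 7.34), 7.85 (7.75 to 7.95), 8.48 (8.41 to 8.56) and 8.25 (8.17 to 8.32) in cells 1 to 4 and 7.82 (7.74 to 7.91) in cell D, which overlapped cell 2. Cell 3 had 2.40 times the RPM of cell 1 (2.18 to 2.65). The mean was 7.95 ± 0.55 (SD, n = 4).

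Read by cell, cell 1 was the low cell for 5 members (*elav*, *fne*, *mei-P26*, *Fmr1* and *Atx2*), that is, below all other kept cells with intervals apart, a position held by 9.83% of the 7734 genes. It was the high cell for none, against 16% of genes. Cell 3 was highest for 4 members (*fne*, *Rbp9*, *pum* and *Atx2*), against 14.2% of genes. Cell 2 was highest for 3 (*elav*, *Fmr1* and *Syp*), against 20.5%, and cell 4 for 2 (*mei-P26* and *brat*), against 26%. Cell 2 was the low cell for *Rbp9* alone, against 2.87%, and cell 4 for no member, against 3.21%. These positions were the same under every other counting and denominator tried, except that *brat* was no longer apart in cell 4 with the sum of the strands or with uniquely mapped reads as the denominator, *Rbp9* no longer apart in cell 2 with the sum of the strands, and *pum* lowest in cell 2 by MMQuant. Cell 2 was thus the low cell for 0 to 2 members. The 7734 genes behind the shares include genes with few reads in several kept cells, whose intervals tend to overlap at the low end. The shares were not taken again on genes at or above 1 RPM in all kept cells. The members together took 2674, 4352, 4534 and 4012 RPM in cells 1 to 4 and 16821 RPM in cell D. Cell 1 was also the cell with the lowest summed level of the neuronal markers and had the highest of the fat body markers. It had the most reads of the hemocyte genes *Hml* and *NimC1* too. The part of these differences in its low values was not tested.

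In the excluded cell, 5 of the 9 genes (*elav*, *fne*, *mei-P26*, *brat* and *pum*) lay above every kept cell with intervals apart, against 29.4% of the 8827 genes at or above 1 RPM in at least 1 of the 5 cells. None lay below every kept cell, against 4.47%. The count was 6 with the sum of the stranded counts, which added *Rbp9*, and 7 with MMQuant, which added *Rbp9* and *Fmr1*. Without cell 2 it was 6, with *Fmr1* added, and without cell 3 it was 6, with *Rbp9* added, while *Syp* then lay below the remaining kept cells. All 11 neuronal markers were also above every kept cell in this library, as were 3 of 9 glial markers and 2 of 5 germline markers, whereas none of the 7 fat body and 12 photoreceptor markers was. The glial genes were *alrm*, with 0, 101, 0 and 1 reads in cells 1 to 4 and 544 in cell D, *Gat*, with 311, 309, 0 and 137 reads in cells 1 to 4 and 1191 in cell D, and *wrapper*, with 0, 18, 0 and 3 reads in cells 1 to 4 and 62 in cell D. The germline genes were *piwi* and *aub*. The part of these differences in the members' levels was not tested, and no test between the excluded cell and the kept cells was run.

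The genes whose levels were most like those of a member over the 5 cells were sought among the same 8827 genes by the root mean square difference of log2(RPM + 1), as a description. For *elav* they were *Tsp66E* (0.47) and *CG11317* (0.56), for *fne* the RNA-binding protein gene *bru3* (0.84) and *jim* (0.95), and for *Rbp9* the double-stranded RNA-binding protein gene *stau* (0.36) and FBgn0026753 (0.40). For *mei-P26* they were the synapse-associated gene *Sap47* (0.59) and the dynein light chain gene *ctp* (0.79), and for *brat* the dopamine and ecdysteroid receptor gene *DopEcR* (0.57) and *Pur-alpha* (0.86). For *pum* they were FBgn0015324 (0.38) and the splicing regulator *Rbfox1* (0.53), and for *Fmr1* the sorting nexin gene *Snx27* (0.31) and *AhcyL1* (0.35). For *Syp* they were *mbl* (0.31) and *sqd* (0.34), both genes of RNA-binding proteins, and for *Atx2* the cytochrome c oxidase gene *COX7A* (0.34) and *Mapmodulin* (0.37). *DopEcR* showed the split of *brat*, at 1.48, 7.02, 1.89 and 8.18 in cells 1 to 4 and 8.86 in cell D. The FBgn identifiers given without a symbol were not matched to one.

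Other genes of RNA regulation were described from lists by function, read against the same background of 23.7%, 34.5%, 17.7% and 35.1% of all genes at or above 1 RPM in cells 1 to 4. Of 13 other splicing and RNA-binding regulators, 11, 13, 9 and 12 passed in cells 1 to 4 and 13 in cell D. The KH-domain gene *ps* (pasilla, the Nova homolog) was at 10.61, 11.14, 10.16 and 11.73 in cells 1 to 4 and 11.38 in cell D. *mbl* (muscleblind) was at 10.95, 11.43, 10.32 and 11.25 in cells 1 to 4 and 10.31 in cell D. Their ranges over the kept cells were 1.57 and 1.12, against 1.26 for *Atx2*, 1.36 for *pum*, 1.53 for *Syp* and 1.83 for *Rbp9*. The genes named from this list for the widest range were low in cell 3. Not every gene of the list was low there, since *bru3*, named above, was highest among the kept cells in cell 3, at 9.22. *msi* (musashi) was at 6.002, 7.47, 0.99 and 7.84 in cells 1 to 4 and 8.19 in cell D, and *nonA*, a gene of visual physiology and song, was at 4.49, 7.05, 0.58 and 7.17 in cells 1 to 4 and 8.39 in cell D.

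Of 11 partners of Pumilio, Brat and Mei-P26, 7, 8, 7 and 7 passed in cells 1 to 4 and 8 in cell D. Those at 0 reads everywhere were *nos*, *bam* and *bgcn*, so the germline co-factors of these repressors were not detectable at this depth. *AGO1*, the microRNA effector, was at 8.58, 9.48, 8.97 and 9.43 in cells 1 to 4 and 10.97 in cell D. The scaffold of the CCR4-NOT deadenylase, *Not1*, was at 8.24, 8.34, 4.30 and 7.64 in cells 1 to 4 and 7.52 in cell D. A subunit of the same complex, *Not3*, was at 6.57, 1.45, 4.28 and 3.81 in cells 1 to 4 and 4.70 in cell D. *Not1* was lowest in cell 3 and *Not3* in cell 2. The TRIM-NHL gene *wech* was at 1.61, 6.75, 1.15 and 2.05 in cells 1 to 4 and 7.92 in cell D, so that among the kept cells it was high in cell 2 alone.

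Of 15 partners of Fmr1 and Ataxin-2 and other RNA granule proteins, 9, 15, 6 and 13 passed in cells 1 to 4 and 14 in cell D, and 5 passed in all kept cells. The poly(A)-binding protein gene *pAbp* was at 11.63, 12.13, 11.39 and 12.42 in cells 1 to 4 and 10.55 in cell D. *rin* (the G3BP homolog of stress granules) was at 9.43, 9.05, 7.72 and 9.46 in cells 1 to 4 and 9.21 in cell D. The named genes with the widest range were lowest in cell 3, where the 6 of 15 that passed compare with 17.7% of all genes. Not every gene of the list was low there, since *AGO2*, picked after its values were seen, was at 0.60, 3.09, 5.84 and 2.13 in cells 1 to 4 and 3.06 in cell D. The P-body gene *tral* was at 9.45, 8.89, 2.37 and 9.05 in cells 1 to 4 and 8.85 in cell D. *Rox8*, the TIA-1 homolog, had 503, 1018, 0 and 1078 reads in cells 1 to 4 and 746 in cell D. The co-factors and the target of Ataxin-2 in clock neurons were picked after their values were seen. *tyf*, which encodes the TYF protein, was at 8.40, 6.30, 3.40 and 4.60 in cells 1 to 4 and 7.29 in cell D. *Lsm12* had 13, 16, 0 and 278 reads in cells 1 to 4 and 100 in cell D. The clock target of Ataxin-2, *per*, had 1, 0, 0 and 21 reads in cells 1 to 4 and 0 in cell D. *Atx2* was thus recorded in every cell, and *per* passed 1 RPM in cell 4 alone.

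Of 13 other translational regulators, 11 passed in each kept cell and 12 in the excluded cell, and *cup*, a germline eIF4E-binding protein, had 0 reads everywhere. *sqd* (squid) was at 10.63, 10.76, 9.65 and 10.76 in cells 1 to 4 and 10.47 in cell D, and *Hrb27C* was at 9.78, 10.85, 10.14 and 10.23 in cells 1 to 4 and 10.97 in cell D. Both encode hnRNP proteins. *orb2*, the CPEB protein of long-term memory, was at 2.88, 7.73, 8.49 and 7.27 in cells 1 to 4 and 9.91 in cell D. It was lowest in cell 1, as were *elav* and *Fmr1*. *Thor* (4E-BP), which holds back cap-dependent translation, was at 3.78, 7.81, 6.58 and 8.40 in cells 1 to 4 and 3.81 in cell D. All 12 of the general translation factors passed in all 5 cells. Among them, *eEF2* was at 11.55, 10.87, 11.04 and 11.03 in cells 1 to 4 and 8.59 in cell D, and *eIF4A* was at 11.29, 10.51, 9.70 and 11.15 in cells 1 to 4 and 9.55 in cell D. The factors with the widest range stood at opposite ends in cell 3, where *eIF2alpha* was highest (4.61, 5.32, 9.69 and 7.71 in cells 1 to 4, and 6.53 in cell D) and *eIF4B* lowest (7.78, 8.19, 4.28 and 8.40 in cells 1 to 4, and 8.07 in cell D).

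Of 14 known targets of the members, 12, 13, 12 and 14 passed in cells 1 to 4 and 13 in cell D. *ewg*, a neuronal transcription factor whose splicing depends on ELAV, was at 7.88, 6.82, 2.37 and 5.44 in cells 1 to 4 and 6.995 in cell D. Among the kept cells it was highest in cell 1 and lowest in cell 3, where *elav* had 1 and 88 reads. Counts per gene do not show splicing, and a link to *elav* was not tested. The sodium channel gene *para*, a target of Pumilio, was at 1.02, 7.51, 9.76 and 7.15 in cells 1 to 4 and 11.35 in cell D. *futsch*, the MAP1B homolog that Fmr1 represses and a neuronal marker as well, was steady among the kept cells, at 8.01, 8.17, 8.53 and 8.43 in cells 1 to 4 and 10.67 in cell D. Genes downstream of the *Syp* and *Imp* timing system were recorded too. *mamo* was at 8.45, 9.23, 10.60 and 10.12 in cells 1 to 4 and 10.13 in cell D, and *Eip93F* (E93) was at 10.07, 11.61, 9.53 and 11.44 in cells 1 to 4 and 9.36 in cell D. *chinmo*, picked after its values were seen, was at 4.31, 7.44, 2.30 and 7.64 in cells 1 to 4 and 9.93 in cell D. Among the kept cells, *chinmo* was high in cells 2 and 4 and low in cells 1 and 3, as *brat* was. Of the 6 lists, the median of the mean expression in the kept cells was 7.43 for the splicing and RNA-binding regulators, 4.03 for the partners of Pumilio, Brat and Mei-P26 and 2.92 for the granule genes. It was 6.59 for the other translational regulators, 6.53 for the targets and 7.36 for the general translation factors, against 2.68 over the 7734 genes, which leave out genes below 1 RPM in every kept cell.

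**Figure D5:**
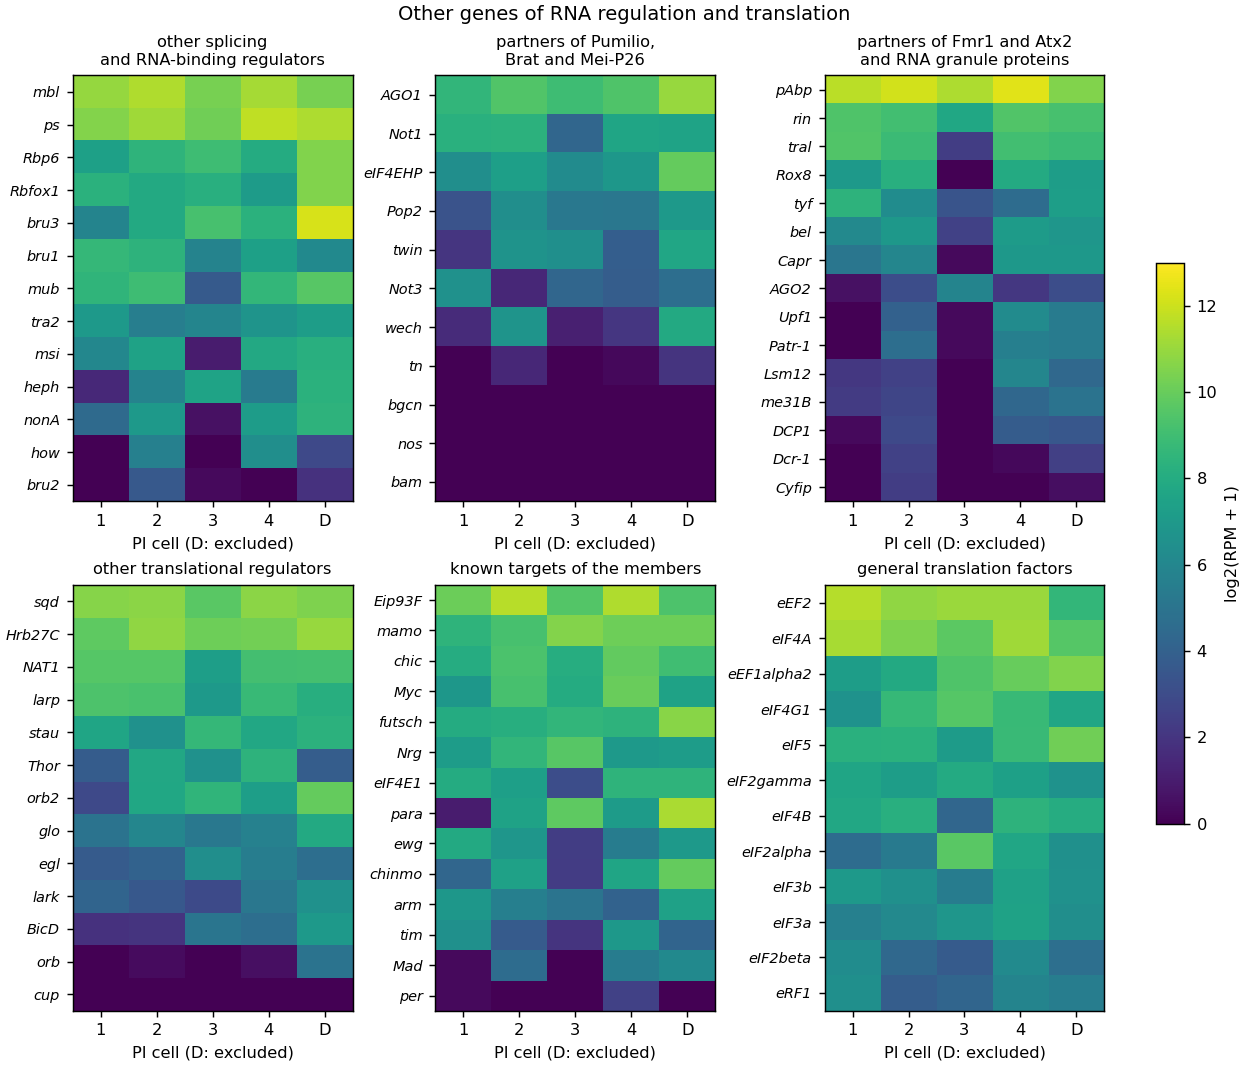
Expression, log2(RPM + 1) from 0 (dark) to 13 (yellow), of the genes of 6 lists (panels) in PI cells 1 to 4 and in the excluded cell D, 1 row per gene, ordered by the mean over the kept cells. General translation factors passed 1 RPM in all cells, 12 of 12, whereas granule genes passed in 15 of 15 in cell 2 and 6 of 15 in cell 3.

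Features of the members' loci that the list did not use were described as well, without a test. By Ensembl release 115 (assembly BDGP6.54, in dm6 coordinates), 4 of the 10 genes lie on chromosome X, 4 on 3R and 2 on 2L, whereas 15.7% of the 13986 protein-coding genes lie on X. All 10 span more than the median protein-coding gene. The median span was 29498 bp for the 10 genes and 2162.5 bp for all protein-coding genes, and 5 of 10 spanned over 30000 bp, against 4.80% of protein-coding genes. *pum*, the longest, spans 171340 bp, and *Fmr1*, the shortest, 8702 bp. The positions include *Imp* (chromosome X, 10787869 to 10824277, minus strand), which has no count here.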

How the data were processed

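Single cells were taken by pipet, their RNA was amplified in 3 rounds as antisense RNA, and unstranded libraries were sequenced as 100-base single reads. Amplification from oligo(dT) leaves the reads at 3' ends. The authors trimmed with Trim Galore and PRINSEQ and mapped to dm6 with STAR. They deposited counts per gene for each cell, whole numbers without normalization. These were without strand, for each strand, and from MMQuant, which can credit a read on overlapping genes to the group. Software versions are not given in the sources used here. MMQuant column names are run numbers that differ from the sample titles, so each table was assigned by its own GEO record.

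RPM used the unstranded count over the 3451331 to 4913151 reads assigned to genes per cell. STAR's totals of unassigned reads stayed out. Of the uniquely mapped reads, 27.0% to 37.0% lay outside exons and 4.42% to 6.18% in overlaps. The threshold of 1 RPM and the pseudocount of 1 follow the study. Symbols were matched for 17180 of 17453 identifiers, *para* from the study's own table. Of 143 listed genes, 139 were matched, and *Imp*, *br*, *eEF1alpha1* and *vas* were not. Positions came from Ensembl release 115 (BDGP6.54), later than the annotation the authors counted with. Python 3.11.15, numpy 2.4.6, pandas 2.3.3, scipy 1.17.1 and matplotlib 3.10.9 were used, and the scripts were tested on simulated data.

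The members and all lists were chosen with earlier results of these data known. Genes named are the members, for each member the 2 genes most like it, those sharing MMQuant reads with it, and from each list the genes below 1 RPM in every cell, the 2 with the highest mean and the 2 with the largest range, as well as marker genes. *tyf*, *Lsm12*, *per*, *chinmo* and *AGO2* fall outside this rule and were picked after their values were seen. Protein features of the members were not analysed here. Alternatives varied the denominator, the counting, depth, threshold, pseudocount and cells.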

Additional observations from a re-analysis of the deposited data

Results flagged for a closer look

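Among the 61 genes named with values in each kept cell, 13 had 1 kept cell that stood apart from the other 3, with a gap to the nearest cell that, as a share of the gene's whole range, was over Dixon's 95% critical value for 4 samples. The share is given in brackets. The 61 leave out the hemocyte genes *Hml* and *NimC1*. Chance flags about 1 in 20 genes that were not chosen for their spread. That rate does not hold for the genes here, of which *wech*, *tral*, *Rox8* and *eIF4B* were named for a wide range over these cells and *per*, *alrm*, *SIFa* and *Ilp3* after their values were seen, so the number of such genes says nothing beyond the selection. None of the 9 RNA regulators was among them, the nearest being *Fmr1* with cell 1 low (0.754). Cell 3 was the low cell for *tral* (0.921), *Rox8* (0.855), *sqd* (0.882), *eIF4B* (0.851) and the neuronal gene *Syx1A* (0.964). It was the high cell for *Dh44* (0.939), *SIFa* (1, with 0 reads in the other kept cells) and *Ilp3* (0.909). Cell 1 was the low cell for *Syt1* (0.952). Outside the 61 genes, cell 1 was the high cell for *Hml* (0.861), which was named after its values were seen. Cell 2 was the high cell for *wech* (0.839) and *alrm* (0.940), and cell 4 was the high cell for *repo* (0.946) and *per* (0.870), the last with 21 reads in cell 4 and at most 1 read in the other kept cells.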

How the results depend on the processing

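Of 342 alternative values, 333 stayed within the spread between cells or within 1.5 times a count. When uniquely mapped reads, assigned or not, were the denominator, the median over the members of the mean expression was 7.27 in place of 7.95, and the means of *pum*, *Syp* and *Atx2* were 7.40, 10.02 and 7.27; this denominator is larger by its construction. At 10 RPM *brat* passed in 2 kept cells, and at 100 RPM *brat* passed in 2, *elav* in 1 and *Fmr1* in 1. Without a filter, the median over all genes was 0.0732. Leaving out each kept cell in turn, the members at or above 1 RPM in the remaining kept cells numbered 7 to 9, with 9 without cell 1, the median over the members was 7.44 to 8.05, and the members above all kept cells in the excluded cell numbered 5 to 6. Denominators without *Dh44* and without fat body and photoreceptor markers, and every alternative for the count above all kept cells, for the lowest and highest kept cell and for the ELAV family shares, were chosen after seeing the data; under both denominators the count was 5. No paired analysis was possible because there is a single condition. The calls of *brat* in cells 1 and 3 rest on 7 reads each, and those of *elav* and *Fmr1* in cell 1 on 1 read each. Cells 1 and 3 had 3915694 and 4077118 assigned reads, more than the 3451331 of cell 2. In cell 2, *elav*, *Fmr1* and *brat* had 423, 444 and 456 reads. Transcripts lost before amplification cannot be told apart from transcripts that were absent.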
